A study of Mus musculus with 8 samples.

Results

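The laminin chains and integrin subunits are the genes of a basement membrane scaffold and of the receptors that bind it. They were taken as every gene probe whose RefSeq accession maps to a laminin chain symbol (Lama, Lamb or Lamc with a digit) or an integrin subunit symbol (Itga or Itgb with a digit or letter), and no measured value entered that choice. The rule found 47 of the 39429 gene probes on the array, which stand for 36 of its 32524 genes and unmatched identifiers: 11 laminin chains (5 α, 3 β and 3 γ) and 25 integrin subunits (16 α and 9 β). Itgae and Itga10, 2 of the 38 symbols that the rule finds in the RefSeq table, had no matched probe and were not analysed here. The samples were pieces of neocortex of ICR mice at embryonic day 16, cut by hand into the ventricular and subventricular zone (V/SVZ), the germinal layers along the ventricle, and the cortical plate (CP), the layer in which young neurons settle. There were 4 V/SVZ and 4 CP samples, all of the same strain and stage with no allele or treatment given, and each was hybridised to its own 1-colour array. Nothing in the labels tells separate animals, pools or litters apart, and the p-values therefore rest on a spread between samples that may be technical.

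A laminin is a cross-shaped trimer of an α, a β and a γ chain, secreted as a unit and laid down in basement membranes together with collagen IV, nidogen and perlecan. Integrins are αβ dimers in the cell membrane, and the α subunit largely decides which matrix protein is bound. In the developing cortex, radial glia hold on to the laminin-rich basement membrane below the pia through their basal endfeet, using β1 integrins and dystroglycan, while vessel walls and the ventricular zone contain laminin as well.

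The dissection was visible in genes that mark the layers. Of 14 radial glia markers 12 were higher in V/SVZ (Gli3 by 7.92 on the log2 scale), as were 7 of 7 intermediate progenitor markers (Eomes by 8.39), while 12 of 13 neuron markers were higher in CP (Nefl at least 65.2-fold). The share of gene probes clearly above background was 58.4% to 62.9% an array, and no gene spot was saturated. Slide 1 carried the V/SVZ arrays and slide 2 the CP arrays, so slide and tissue cannot be told apart. Values below are log2 signals relative to the 75th percentile of the array, so 0 is the signal that 75% of gene probes do not exceed. Differences are V/SVZ minus CP with their standard error (SE), over 4 arrays a tissue. A gene was called where the limma p-value, adjusted by Benjamini-Hochberg over 19232 genes, was under 0.05. The sign follows the scanner files and their sample labels. In the authors' deposited table each column matches an array of the other tissue with its number, so that table as its columns are named gives the opposite sign.

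Of the 36 genes, 27 had a probe bright enough to be tested, which required a signal well above background on all 4 arrays of V/SVZ, of CP or of both. Most of the calls were toward the germinal zone: 14 were higher in V/SVZ, 6 were higher in CP and 7 were not called. Over all 19232 genes 79.5% were called, 35.0% as higher in V/SVZ and 44.6% as higher in CP, so the share of the family that was called (20 of 27) was near the background, and the direction of its calls was the reverse of the majority. Among the called genes 13 differed by 2-fold or more toward V/SVZ and Lamb1 alone toward CP, against 13.7% and 16.5% of all genes. The arrays of the tissues did not overlap for 18 of the 27 genes, against 75.2% of all genes. The median difference was 0.23 over the 27 genes (0.60 over 10 laminins, 0.23 over 17 integrins) and -0.09 over all genes. It was 0.03 under the normexp background correction and 0.41 under quantile normalization. Since 5 of the 27 were not above background on all 8 arrays and passed through V/SVZ alone, these counts describe the tested genes only. Among the 22 that were above background throughout, 10 were higher in V/SVZ and 6 in CP. In bulk tissue, fewer cells of a type and less RNA per cell cannot be told apart.

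**Figure D1:**
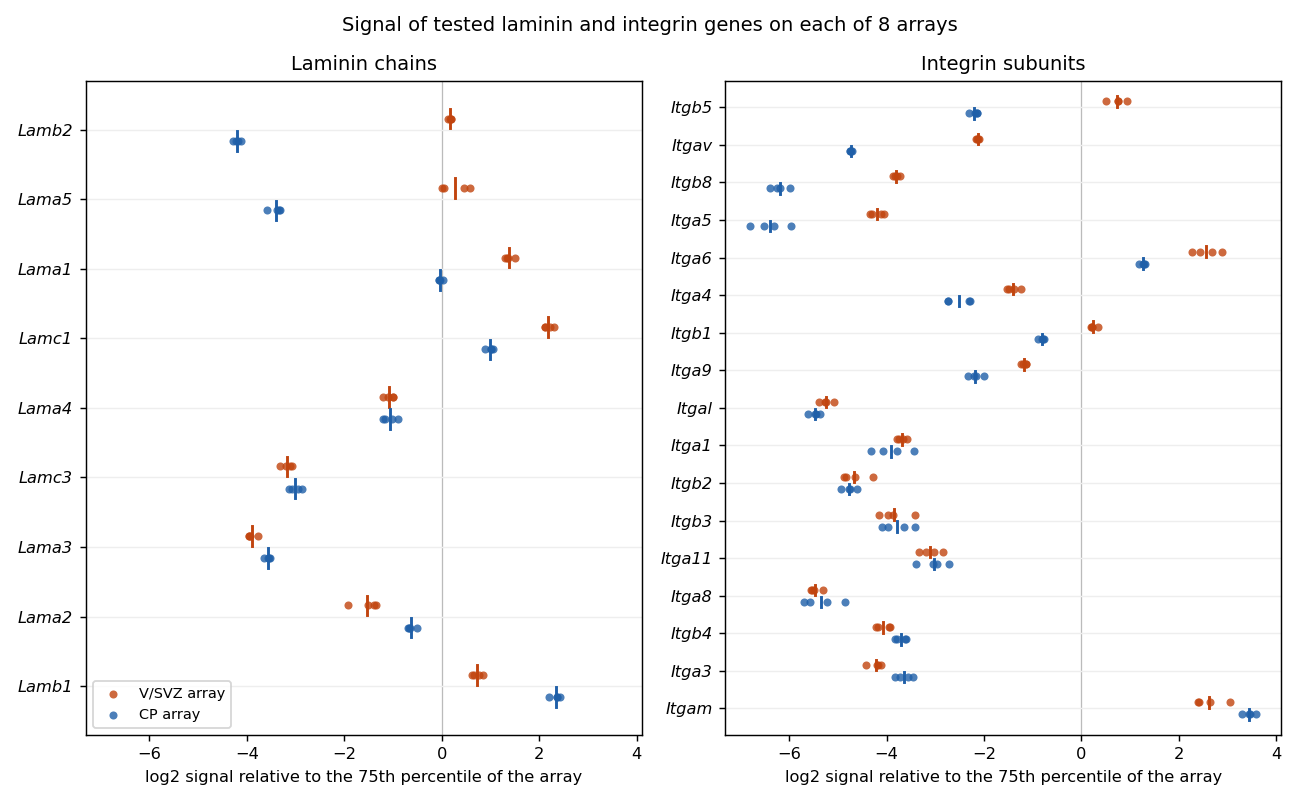
Log2 signal relative to the 75th percentile of the array (x axis) for the tested genes described in the text, with laminins on the left and integrins on the right. Orange points are the 4 V/SVZ arrays, blue points the 4 CP arrays and vertical ticks the means. Lamb2, Lama5, Itgb5 and Itgav stand far apart between the tissues, Lamb1 and Itgam lie higher in CP, and the points of Lama4, Itgb3 and Itga11 overlap.

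The 5 laminin α chains, which carry the globular domains that integrins and dystroglycan bind, divided 2 to 2 between the tissues with 1 not called. Lama5, the α chain of many epithelial and vessel basement membranes, read 0.57, 0.45, -0.0038 and 0.04 on V/SVZ arrays 1 to 4 and -3.33, -3.38, -3.34 and -3.60 on CP arrays 1 to 4. Every V/SVZ array lay far above every CP array. The difference was 3.67 (SE 0.14, adjusted p = 8.42e-08, limma), a 12.8-fold higher signal, which fell to 7.70-fold under the normexp background correction. Lama1, the α chain of early embryonic and pial basement membranes, read 1.34, 1.51, 1.29 and 1.35 in V/SVZ and -0.07, -0.06, 0.01 and -0.05 in CP. Its groups did not overlap, and the difference was 1.41 (SE 0.05, adjusted p = 6.16e-08, limma), or 2.66-fold.

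Lama2, the chain of the laminin of muscle and peripheral nerve, went the other way. Its V/SVZ values were -1.36, -1.39, -1.51 and -1.92 and its CP values -0.67, -0.51, -0.69 and -0.66, so CP was higher without overlap. The difference was -0.91 (SE 0.12, adjusted p = 0.000192, limma), and another Lama2 probe gave -0.91 as well. Lama3, the chain of the skin laminin, read -3.77, -3.94, -3.95 and -3.95 in V/SVZ and -3.57, -3.53, -3.65 and -3.54 in CP. Here too every CP array was higher, by a small amount: -0.33 (SE 0.05, adjusted p = 0.000516, limma), or 1.26-fold. Lama4, a chain of vessel walls, read -1.20, -1.11, -1.01 and -0.997 in V/SVZ and -1.21, -1.16, -0.89 and -1.02 in CP. The tissues overlapped throughout, and the difference of -0.01 (SE 0.08, adjusted p = 0.905, limma) was not called.

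The β chains held the largest difference of the family in each direction. Lamb2, the β chain of mature vessel, kidney filter and synaptic laminins, read 0.17, 0.19, 0.12 and 0.18 in V/SVZ and -4.30, -4.18, -4.12 and -4.23 in CP. It was bright on all V/SVZ arrays and dim, though above background, on all CP arrays. The difference was 4.37 (SE 0.04, adjusted p = 3.43e-10, limma), which is 20.7-fold, or 13.5-fold under normexp. Lamb1, the β chain of most embryonic laminins, read 0.84, 0.76, 0.66 and 0.62 in V/SVZ against 2.36, 2.42, 2.21 and 2.37 in CP. All CP arrays were above all V/SVZ arrays, with a difference of -1.62 (SE 0.07, adjusted p = 1.21e-07, limma), or 3.07-fold. The log2 ratio of Lamb2 to Lamb1 was thus 5.99 (SE 0.09) greater in V/SVZ than in CP. Lamb3, the β chain of skin laminin, was above background on 3 V/SVZ arrays and 0 CP arrays and was not tested.

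Among the γ chains, Lamc1, the γ chain shared by most laminins, was 2.30-fold higher in V/SVZ (1.20, SE 0.05, adjusted p = 2.12e-07, limma), with all V/SVZ arrays between 2.11 and 2.29 and all CP arrays between 0.89 and 1.04. Lamc3 read -3.12, -3.08, -3.32 and -3.21 in V/SVZ and -3.08, -2.96, -3.14 and -2.88 in CP. The groups overlapped and the difference of -0.17 (SE 0.08, adjusted p = 0.0730, limma) was not called, although scaling on the spike-in RNAs (-0.24, adjusted p = 0.0269) or leaving out CP 3 (-0.21, adjusted p = 0.0401) brought it past the threshold.

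The sequence just before the gene start is shown for the 3 V/SVZ genes with the largest differences and for Lamb1, the gene with the largest difference toward CP, so that the promoters of genes that moved apart can be read side by side. Each is the 250 bases upstream of the RefSeq start in build GRCm38.p6, written 5′ to 3′ on the strand of the gene: Lamb2 at chr9:108479612-108479861 (plus), Lama5 at chr2:180225860-180226109 (minus), Itgb5 at chr16:33829415-33829664 (plus) and Lamb1 at chr12:31265043-31265292 (plus). Capitals mark the GC box (GGGCGG), the CCAAT box (CCAAT) and the TATA box (TATAAA), each searched on both strands.
Lamb2: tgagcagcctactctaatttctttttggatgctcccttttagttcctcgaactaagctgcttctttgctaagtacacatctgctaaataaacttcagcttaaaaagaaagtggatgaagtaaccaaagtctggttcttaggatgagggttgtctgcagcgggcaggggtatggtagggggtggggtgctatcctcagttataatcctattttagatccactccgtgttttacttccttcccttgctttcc
Lama5: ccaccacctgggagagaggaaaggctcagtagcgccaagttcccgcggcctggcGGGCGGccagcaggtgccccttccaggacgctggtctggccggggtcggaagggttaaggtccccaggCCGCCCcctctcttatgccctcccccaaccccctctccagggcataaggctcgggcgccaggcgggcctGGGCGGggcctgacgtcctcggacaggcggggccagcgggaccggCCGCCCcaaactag
Itgb5: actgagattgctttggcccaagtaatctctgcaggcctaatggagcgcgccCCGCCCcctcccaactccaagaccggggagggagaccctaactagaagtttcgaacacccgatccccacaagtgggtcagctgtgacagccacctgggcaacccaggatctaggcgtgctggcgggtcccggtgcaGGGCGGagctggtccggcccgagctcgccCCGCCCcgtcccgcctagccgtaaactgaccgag
Lamb1: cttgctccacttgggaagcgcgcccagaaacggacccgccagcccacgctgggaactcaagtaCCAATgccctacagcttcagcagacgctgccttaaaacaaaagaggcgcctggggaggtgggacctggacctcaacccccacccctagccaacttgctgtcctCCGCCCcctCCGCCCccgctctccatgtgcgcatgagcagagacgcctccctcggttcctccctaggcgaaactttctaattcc
The Lamb2 window was 43.6% G and C and held 0 of these motifs, while the Lama5, Itgb5 and Lamb1 windows were 72.4%, 65.2% and 62.0% G and C and held 4, 3 and 2 GC boxes. The median over all 32851 windows of the table was 52.4%. A GC box was present in 32.7% of all windows and in 8 of the 23 family genes with a window (34.8%). A CCAAT box was present in 33.8% of windows and in 3 of the 23, Lamb1 among them, and a TATA box in 12.4% of windows and 0 of the 23. A match describes letters and was not tested as a binding site.

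The integrin α subunits that bind laminin moved in opposite directions. Itga6, which joins β1 or β4 into a laminin receptor and is abundant on neural progenitors, read 2.27, 2.43, 2.67 and 2.88 in V/SVZ and 1.26, 1.30, 1.18 and 1.28 in CP. V/SVZ was higher on every array, by 1.31 (SE 0.12, adjusted p = 2.33e-05, limma) or 2.48-fold, with a wider spread in V/SVZ (SD 0.27) than in CP (SD 0.05). Itga3, the other such subunit tested, known for its part in neuron migration, read -4.19, -4.17, -4.41 and -4.11 in V/SVZ and -3.73, -3.82, -3.46 and -3.57 in CP. CP was higher without overlap, by a difference of -0.58 (SE 0.10, adjusted p = 0.000676, limma) or 1.49-fold. The log2 ratio of Itga6 to Itga3 was 1.88 (SE 0.18) greater in V/SVZ. Itga7, the laminin receptor subunit of muscle, was above background on 2 V/SVZ arrays and 1 CP array and was not tested.

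Subunits that recognise the RGD motif of fibronectin, vitronectin and related proteins included some of the larger differences. Itgav, the partner of several β subunits, read -2.14, -2.12, -2.10 and -2.16 in V/SVZ and -4.75, -4.72, -4.76 and -4.71 in CP. The arrays of each tissue lay within a narrow range and did not overlap. The difference was 2.61 (SE 0.03, adjusted p = 3.76e-10, limma), or 6.10-fold and 3.60-fold under normexp. Itga5, the α subunit of the main fibronectin receptor, read -4.11, -4.30, -4.33 and -4.05 in V/SVZ and -6.51, -6.79, -5.95 and -6.31 in CP, where it was well above background on 0 arrays. Its signal was therefore at least 2.84-fold higher in V/SVZ (fitted difference 2.19, adjusted p = 6.31e-06, limma), taking the higher of the dim value and the lowest signal among probes above background on each CP array. Under normexp its fold was 1.66, below that bound. Every fold given as at least is a bound of this kind. It rests on the background-subtracted signals used here, and another background correction can give less. Itga8, a receptor subunit for nephronectin, read -5.53, -5.29, -5.50 and -5.55 in V/SVZ and -5.70, -4.85, -5.57 and -5.23 in CP. The groups overlapped and the difference of -0.13 (SE 0.18, adjusted p = 0.519, limma) was not called, but under normexp it was -0.34 with an adjusted p of 0.0125.

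Itga4, which binds VCAM1 and fibronectin, and Itga9, which binds tenascin C and osteopontin, were both higher in V/SVZ with no overlap of arrays: by 1.11 (SE 0.13, adjusted p = 7.79e-05, limma) and 1.003 (SE 0.07, adjusted p = 3.16e-06, limma). These are 2.16-fold and 2.004-fold. Of the collagen receptors, Itga1 read -3.79, -3.75, -3.57 and -3.66 in V/SVZ and -4.08, -4.32, -3.78 and -3.44 in CP. CP array 4 lay above all V/SVZ arrays, and the difference of 0.21 (SE 0.18, adjusted p = 0.293, limma) was not called, though it was 0.37 (adjusted p = 0.0338) without that array. Itga11 read -3.20, -3.32, -2.85 and -3.03 in V/SVZ and -3.04, -3.39, -2.96 and -2.71 in CP. The tissues overlapped, and the difference was -0.07 (SE 0.16, adjusted p = 0.675, limma). Itga2 was above background on 1 V/SVZ array and was not tested.

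Among the β subunits outside the leukocyte group, 3 of 5 tested were higher in V/SVZ and 1 in CP, beside 35.0% and 44.6% of all genes. Of the 3, Itgb8 passed the filter through V/SVZ alone. Itgb5, a partner of αv in vitronectin binding, read 0.51, 0.75, 0.75 and 0.94 in V/SVZ and -2.19, -2.31, -2.14 and -2.15 in CP. The groups were far apart, at 2.94 (SE 0.09, adjusted p = 2.19e-08, limma) or 7.67-fold. Itgb8, the αv partner known for releasing active TGFβ, read -3.87, -3.79, -3.83 and -3.72 in V/SVZ and -6.39, -6.18, -5.97 and -6.24 in CP. It was above background on all V/SVZ arrays and 0 CP arrays. The bound so reckoned was 3.73-fold higher in V/SVZ (fitted difference 2.39, adjusted p = 5.65e-08, limma), while normexp gave 2.15-fold, below that bound. Itgb1, the most widely shared β subunit, was 2.08-fold higher in V/SVZ (1.06, SE 0.05, adjusted p = 1.78e-07, limma), with V/SVZ arrays from 0.19 to 0.34 and CP arrays from -0.89 to -0.77.

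Itgb4, the α6 partner of hemidesmosomes, was higher in CP. Its values were -3.93, -3.95, -4.17 and -4.21 in V/SVZ and -3.82, -3.79, -3.60 and -3.62 in CP, without overlap. The difference was small, -0.36 (SE 0.09, adjusted p = 0.00593, limma), or 1.28-fold. Itgb3, a subunit of platelets and of the vitronectin receptor, read -3.98, -4.16, -3.86 and -3.41 in V/SVZ and -4.10, -3.97, -3.42 and -3.65 in CP. The groups overlapped, and the difference of -0.06 (SE 0.20, adjusted p = 0.780, limma) was not called. Itgb6, an epithelial αv partner, was above background on 0 arrays with either of its probes.

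**Figure D2:**
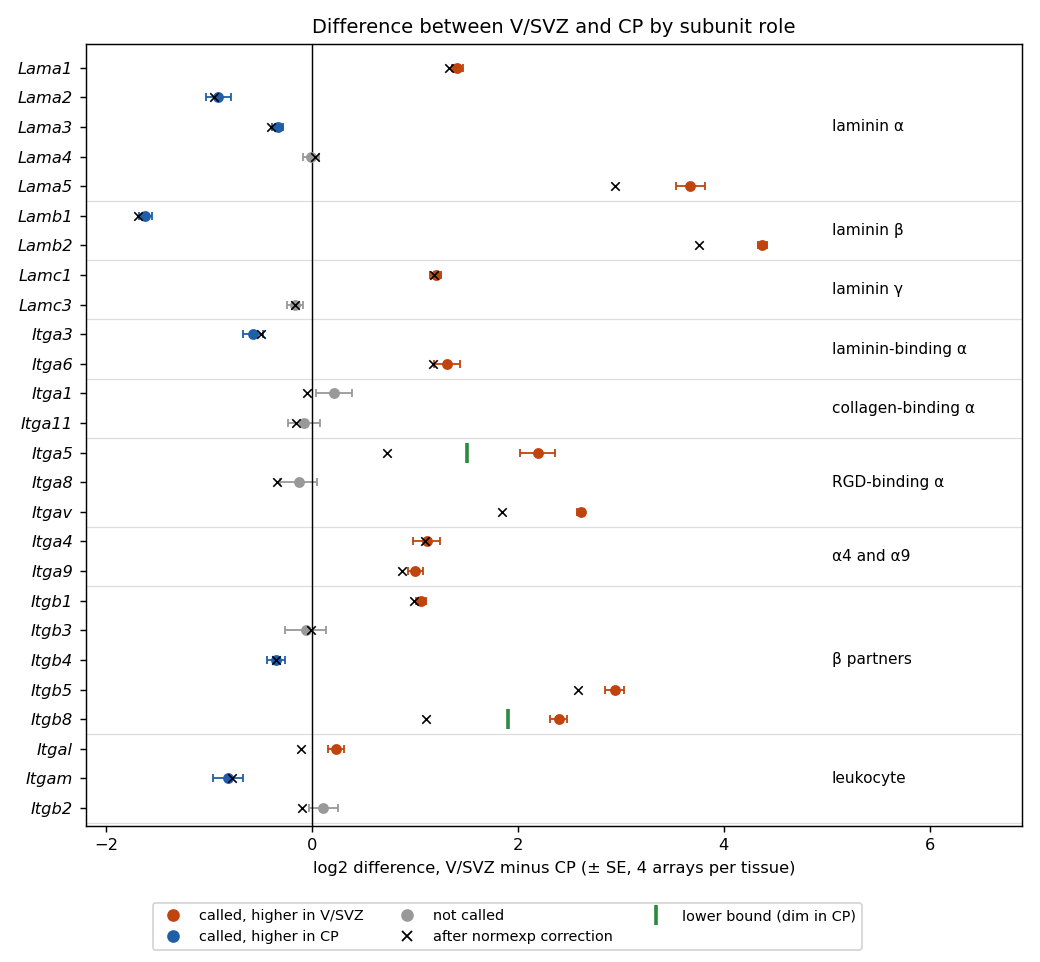
Log2 difference, V/SVZ minus CP, with its standard error over 4 arrays a tissue (x axis) for the tested genes described in the text, ordered by subunit role. Orange and blue points were called as higher in V/SVZ and CP, grey points were not called, crosses give the normexp value and green ticks the lower bound of Itga5 and Itgb8. Lamb2 and Lama5 lie furthest right, Lamb1 lies furthest left, and the crosses of Itga5 and Itgb8 fall well short of their points.

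Subunits were set side by side over 15 textbook dimers, each with both subunits tested, which restates the calls of the single genes. Both subunits were higher in V/SVZ for 7: α4β1, α5β1, α6β1, α9β1, αvβ1, αvβ5 and αvβ8. These dimers share subunits, since β1 and αv recur, so they are not separate observations. Among them, α5β1 and αvβ8 could be listed only because Itga5 and Itgb8, above background on 0 CP arrays, passed the filter through V/SVZ. Of all single genes tested, 35.0% were called as higher in V/SVZ. For 1 dimer, α3β1, the α subunit was higher in CP and the β subunit in V/SVZ, and for 0 dimers were both higher in CP. That 0 was fixed by the list, since β4, the only β subunit called as higher in CP, was listed with α6 alone. The α6β4 dimer had its α subunit higher in V/SVZ and its β subunit higher in CP. RNA levels do not show which dimers were assembled.

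The leukocyte subunits, which pair with Itgb2 or Itgb7 on immune cells, did not share a direction. Itgam, the CD11b subunit of microglia and macrophages, read 2.42, 2.64, 3.05 and 2.40 in V/SVZ and 3.28, 3.58, 3.44 and 3.46 in CP on its brightest probe. CP was higher on every array, with a difference of -0.81 (SE 0.15, adjusted p = 0.00113, limma). Another Itgam probe, which is dim, read -5.25, -5.34, -4.95 and -5.19 in V/SVZ and -5.42, -5.44, -5.35 and -5.36 in CP. It gave the opposite direction, 0.21 (SE 0.08, adjusted p = 0.0409, limma), and 1 further Itgam probe was above background on 1 array only, so the direction of Itgam depends on the probe. Where on the transcript these probes lie is not given in the sources used here.

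Its partner Itgb2 read -4.88, -4.83, -4.65 and -4.27 in V/SVZ and -4.61, -4.93, -4.76 and -4.77 in CP. The groups overlapped, with a difference of 0.11 (SE 0.14, adjusted p = 0.477, limma). Itgal, the lymphocyte subunit CD11a, read -5.27, -5.38, -5.23 and -5.08 in V/SVZ and -5.36, -5.46, -5.62 and -5.47 in CP, close to background. It was above background on 0 CP arrays and overlapped between tissues, and it was called as higher in V/SVZ (0.23, SE 0.08, adjusted p = 0.0229, limma). No fold below the fitted one can be given as a bound, since its CP signals exceeded the lowest signal among probes above background. That call was lost under spike-in scaling (0.17, adjusted p = 0.122), with a trended and robust variance model (adjusted p = 0.0939), without V/SVZ 4 (0.18, adjusted p = 0.0501) and without CP 3 (0.19, adjusted p = 0.0562), and normexp turned the sign (-0.11, adjusted p = 0.194). Itgax was above background on 3 V/SVZ arrays and 0 CP arrays, Itgb7 on 1 V/SVZ array, and Itgad and Itgb2l on 0 arrays. These 4 genes were not tested.

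Beside 35.0% of all genes called as higher in V/SVZ and 44.6% in CP, markers of microglia moved toward V/SVZ. Of 16 tested 14 were higher there and 0 in CP (median difference 1.96, P2ry12 2.39), while Ptprc (-0.35) and Aif1 (0.45) were not called. Their summed signal, in percent of the 75th percentile of the array, ran from 1428 to 2064 in V/SVZ and from 482 to 611 in CP. The marker list thus ran opposite to the bright Itgam probe. The part of microglial content in the leukocyte values was not tested. Platelet and blood markers were higher in V/SVZ for 8 of 9 (Gp9 at least 1.51-fold), while Gp1bb, a platelet gene like Gp9, was 2.41-fold higher in CP. The summed signals of that list, which also holds red cell genes, were from 32056 to 37724 in V/SVZ and 26322 to 28130 in CP. Beside these markers, Itga2b, the α subunit of the platelet fibrinogen receptor, was above background on 0 arrays, and its partner Itgb3 was not called.

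**Figure D3:**
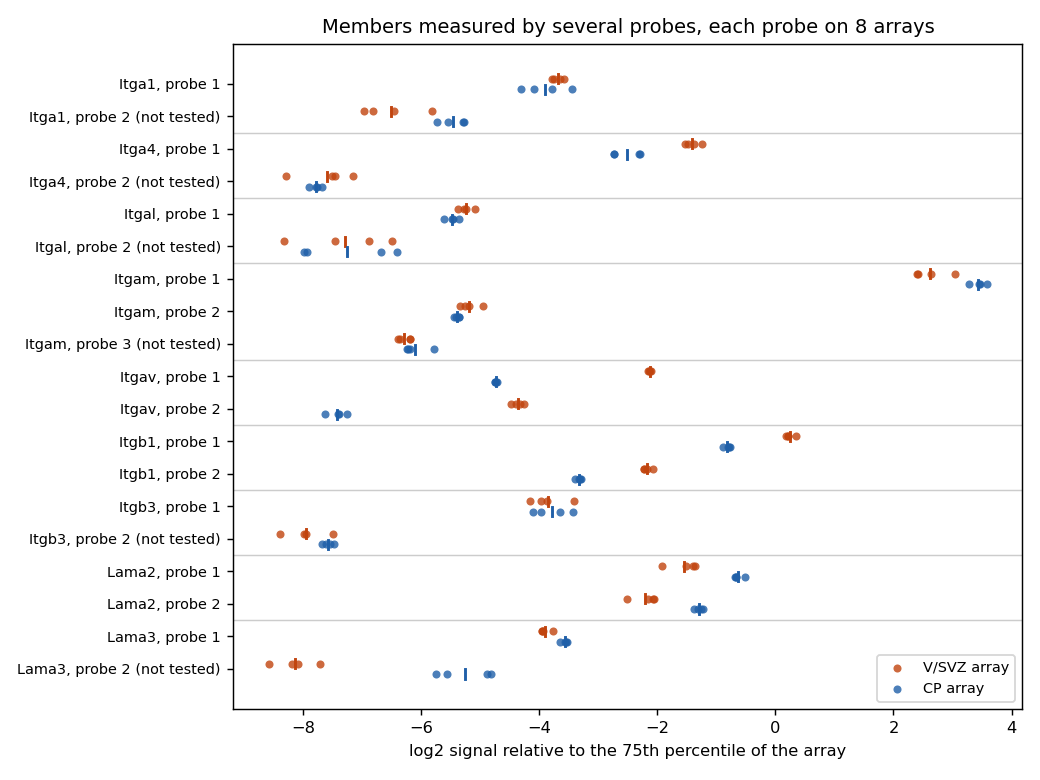
Log2 signal relative to the 75th percentile of the array (x axis) for each probe of the genes with several probes, other than Itgb6. Points are the 4 V/SVZ (orange) and 4 CP (blue) arrays, with ticks at the means. The probes of Itgav, Itgb1 and Lama2 repeat the same direction, while probe 1 of Itgam is higher in CP and its probe 2 slightly higher in V/SVZ.

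Other genes with several probes gave the same direction wherever more than 1 could be tested. The dimmer Itgav probe was above background on 0 CP arrays and at least 2.52-fold higher in V/SVZ (fitted difference 3.05, adjusted p = 1.11e-08, limma). The dimmer Itgb1 probe gave 1.16 (adjusted p = 8.62e-08, limma). Lama3 had an untested probe that read -7.71, -8.09, -8.20 and -8.57 in V/SVZ and -4.82, -4.88, -5.56 and -5.75 in CP, where it was above background on 3 arrays. It lay higher in CP like the tested Lama3 probe, but was above background on 0 V/SVZ arrays. The untested Itga1 probe, above background on 0 arrays, read -6.82, -6.45, -5.82 and -6.97 in V/SVZ and -5.73, -5.28, -5.54 and -5.29 in CP, opposite in direction to the tested Itga1 probe. Itga4, Itgb3 and Itgal each had an untested probe above background on 0 arrays, so their values rest on 1 probe. For Itga4 that untested probe read between -8.28 and -7.15 on the 8 arrays. Over all tested probes 79.7% were called.

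Other proteins of the basement membrane were also divided. Of 22 listed partners of laminin 17 were tested: 9 were higher in V/SVZ, 6 in CP and 2 were not called, with a median of 0.51. Beside this, 79.5% of all genes were called, 35.0% as higher in V/SVZ and 44.6% in CP, with a median of -0.09. Col4a5, a collagen IV chain, had a V/SVZ signal at least 27.4-fold higher, and Fbln2, which links laminin to other matrix proteins, and Smoc1, a calcium-binding matrix protein, were higher by 4.51 (SE 0.18) and 4.26 (SE 0.07). Egfl6, a secreted matrix protein, was at least 2.78-fold higher in CP. The common collagen IV chain Col4a1 (0.01, adjusted p = 0.848, limma) and nidogen Nid1 (-0.04, adjusted p = 0.464, limma), which builds the link between laminin and collagen IV, were not called.

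Dystroglycan is the main laminin receptor outside the integrins, and it binds through a glycan that a chain of enzymes puts in place. Of 25 tested genes of the complex and those enzymes 6 were higher in V/SVZ and 10 in CP, with a median of -0.04, but under quantile normalization 10 were higher in V/SVZ. The shares over all genes were 35.0% higher in V/SVZ and 44.6% in CP, with a median of -0.09. Dag1 itself was 1.17-fold higher in V/SVZ (0.23, SE 0.05, adjusted p = 0.00236, limma). Sntb2, a syntrophin adaptor, had the largest difference (-2.48, SE 0.07), and dystrophin, Dmd (-0.79, SE 0.26), was also higher in CP. The dystrophin relative Utrn was higher in V/SVZ (0.58, SE 0.17).

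Ligands of the integrins other than laminin showed 12 of 23 tested genes higher in V/SVZ and 8 in CP (median 0.26). For these and the adaptors below, the background was 79.5% of all genes called, 35.0% as higher in V/SVZ and 44.6% in CP (median -0.09). Tenascin C, Tnc, a ligand of α9β1 and of αv integrins, was at least 28.8-fold higher in V/SVZ. Vcam1, the ligand of α4β1, and Ccn1, a matrix ligand of αv integrins, were higher there by 6.43 (SE 0.16) and 6.29 (SE 0.09). Reelin, Reln, a signal for migrating neurons, was higher in CP (-4.39, SE 0.70) but above background on only 2 V/SVZ arrays, and tenascin R, Tnr, was at least 10.2-fold higher in CP. Fibronectin, Fn1, the ligand of α5β1, was also higher in CP (-0.87, SE 0.10). Inside the cell, 28 of 43 tested activators and adaptors were higher in V/SVZ and 11 in CP (median 0.47), and median scaling left 7 higher in CP. Dock1, an activator of Rac, Tns3, a tensin, and Parva, an actin-binding partner of integrin-linked kinase, were the largest at 3.72 (SE 0.07), 3.66 (SE 0.07) and 3.56 (SE 0.06). Lims2, another partner of that kinase, was furthest the other way at -1.55 (SE 0.09).

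**Figure D4:**
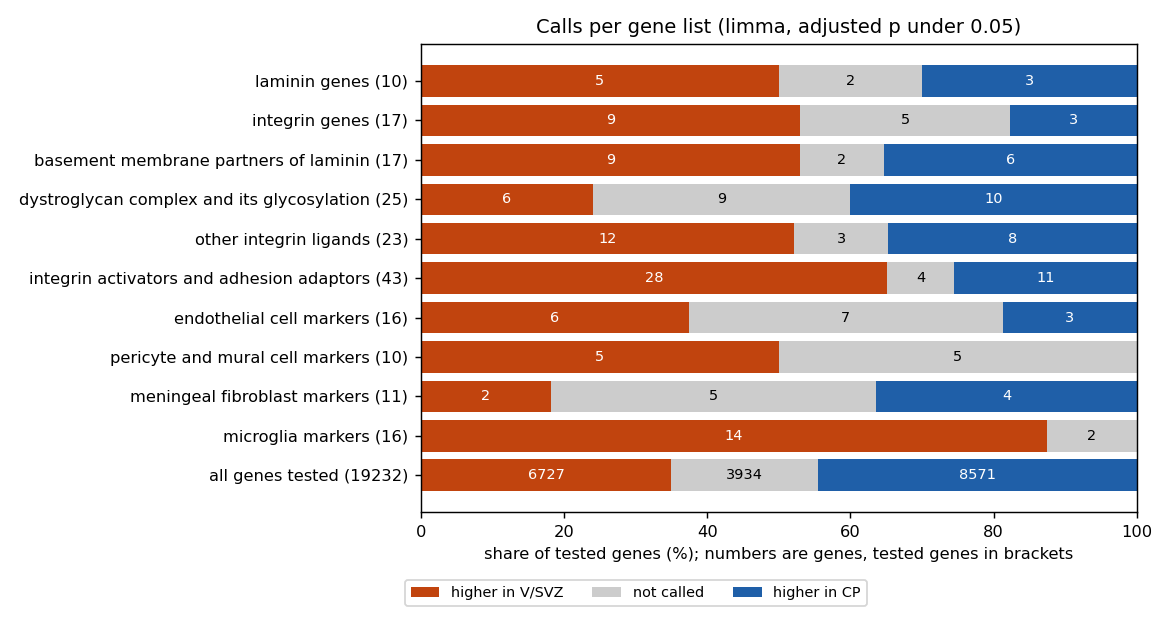
Share of tested genes (x axis, percent) called as higher in V/SVZ (orange), not called (grey) and higher in CP (blue) for the laminins, the integrins, related gene lists and all genes, with the number of genes in each segment. Laminins and integrins show 5 of 10 and 9 of 17 genes higher in V/SVZ beside 6727 of 19232 over all genes, and the microglia list has 14 of 16.

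Vessels, mural cells and meninges also make laminin, and their markers were set beside the family. Among all genes tested 79.5% were called, 35.0% as higher in V/SVZ and 44.6% in CP. Of 16 endothelial markers 6 were higher in V/SVZ, 3 in CP and 7 were not called, and the 3 became 0 under median scaling or quantile normalization. Slco1c1, a transporter of brain endothelium, was the largest at 3.01 (SE 0.16), while the defining genes Cdh5 (0.11, adjusted p = 0.172, limma) and Pecam1 (-0.13, adjusted p = 0.0527, limma) were not called. The summed endothelial signal was 2379 to 2550 percent of the 75th percentile in V/SVZ and 1722 to 1909 in CP. Slc2a1 (0.98) and Mfsd2a (1.19) enter that sum with Slco1c1, and these 3 had the largest differences of the list. The other markers higher in V/SVZ were Kdr (0.32), Cldn5 (0.27) and Eng (0.27). Like Cdh5 and Pecam1, the markers Tie1 (0.06), Tek (0.007), Flt1 (-0.06), Esam (-0.02) and Ocln (0.38) were not called. Those higher in CP were Egfl7 (-0.12), Ramp2 (-0.21) and Emcn (-0.24). Pericyte and mural markers were higher in V/SVZ for 5 of 10 and in CP for 0 (Notch3 by 3.19, SE 0.04), with sums from 612 to 659 in V/SVZ and 308 to 362 in CP. Notch3, with mean log2 signals of 1.37 in V/SVZ and -1.81 in CP, was the brightest of these markers in V/SVZ and enters both sums. Besides Notch3, the mural markers higher in V/SVZ were Pdgfrb (0.93), Vtn (0.59), Ndufa4l2 (0.23) and Kcnj8 (0.20). The markers not called were Rgs5 (0.18), Cspg4 (-0.12), Abcc9 (-0.03), Anpep (0.01) and Tagln (-0.18). Meningeal fibroblast markers were higher in V/SVZ for 2 and in CP for 4 of 11, with sums from 171 to 218 and from 154 to 171. Of these, Ogn was at least 18.6-fold higher in V/SVZ, Lum at least 4.24-fold and Col3a1 2.20-fold higher in CP, Foxc1 (0.06) and Col1a1 (0.10) were not called, and Aldh1a2, Cdh1 and Mgp were above background on 0 arrays. Choroid plexus markers were tested for 2 genes only, Aqp1 higher in V/SVZ (1.12) and Folr1 higher in CP (-0.64), and Ttr, Kl and Clic6 were above background on 0 arrays. The part of these cell types in the laminin and integrin differences was not tested.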

How the data were processed

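Total RNA (100 ng input) was Cy3-labelled for 1-colour Agilent arrays, per the labels' protocols. The authors deposited scanner files whose intensity values were made with Agilent Feature Extraction 10.7.1.1, per the file headers: a background-subtracted signal for each spot. They also deposited a table of log2 values, with scaling and filter not given in the sources used here. It holds 19 of the family's probes and was used as an alternative with its direction turned. No column of per-sample values was unmapped (0).

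Here, control spots and outlier spots (142 to 258 an array) were left out, spots of a probe were averaged as log2, and the 75th percentile of each array was subtracted. A probe was tested where well above background on all 4 arrays of a tissue, with values on at least 3 of each, which left 23860 probes. The tested probe with the highest mean stood for a gene. Symbols came from a RefSeq table of GRCm38.p6 (26761 probes named, 12668 not), while the array headers name mm9, so the only coordinates given are those of the RefSeq promoter windows. Groups came from sample titles. V/SVZ and CP were compared in limma 3.58.1 under R 4.3.3 (lmFit, then eBayes), and the same fit was also run on simulated data. The 4 arrays a tissue limit the precision.

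The family and the gene lists were chosen with earlier results of these data known, so lists are described by counts and medians without a test. Array values are given for the 6 largest called differences in each direction, for bounds, for genes not called and for probes that disagree. Of each related list the 3 largest called differences and the called gene that went furthest the other way are named, and of each cell type list the largest. Some genes that these rules name are not reported here by name, though counts and medians include them. Dag1, Fn1, Tnr, Lum, Col3a1, Folr1, Col4a1, Nid1, Cdh5, Pecam1, Foxc1, Col1a1, Ptprc and Aif1 were added after their values were seen. So were Gp1bb, Slc2a1, Mfsd2a, Tie1, Tek, Flt1, Esam, Egfl7, Ramp2, Emcn, Rgs5, Cspg4, Abcc9, Anpep and Tagln. The same holds for Kdr, Cldn5, Eng, Ocln, Pdgfrb, Vtn, Ndufa4l2 and Kcnj8. Alternatives covered scaling, background correction (normexp, offset 50, on median signals, since the files used hold no mean signal), filter, probe choice, replicate block, variance model, the deposited table and each array left out.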

Additional observations from a re-analysis of the deposited data

Results flagged for a closer look

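Of 54 groups of 4 arrays (27 genes in each tissue), 2 had an array far from the other 3 by Dixon's test, and chance alone marks about 1 group in 20. Lama2 on CP array 2 read -0.51 against -0.69 to -0.66 on the others, a gap of 0.863 of the group's range. Lama3 on V/SVZ array 1 read -3.77 against -3.95 to -3.94, a gap of 0.958 of the range.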

How the results depend on the processing

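The fit reported gave 14 genes higher in V/SVZ, 6 higher in CP and a median of 0.23 over 27 genes. The other scalings, background correction, filters, probe choice and variance model gave 10 to 16 and 6 to 7, within 1.5 times of those counts. The 10 were among 22 genes above background on all 8 arrays, and the 16 among 36 genes with no filter on dim probes. The median ran from 0.03 under normexp to 0.41 under quantile normalization. In the authors' deposited table, where 15 of the genes could be tested, 3 were higher in CP and the median was 1.06, with fewer genes tested. Leaving out 1 array at a time gave 12 to 15 genes higher in V/SVZ, 6 to 7 higher in CP and medians from 0.20 to 0.99. The 0.99 came without V/SVZ 1, when 29 genes passed the filter. Of 473 gene values under the alternatives, 454 kept their side of the threshold with no called value changing sign. A further 11 lost their call and 5 gained one. Genes called in neither fit count among the 454 even where the sign changed, as for Itga1 under normexp (-0.05) and Itga8 under quantile normalization (0.04). The 3 that reversed with a call in at least 1 fit were Itgal under normexp (-0.11) and Itgam in the deposited table (0.22) and with its other tested probe (0.21). That probe is the only Itgam probe in the deposited table. The cause of the Itgal change was not tested. Under normexp the folds of Lamb2, Lama5, Itgav, Itgb8 and Itga5 moved by over 1.5 times. Same-numbered arrays deviated together with correlations of 0.34, 0.31, 0.10 and 0.20, and 3 of 4 numbers were highest with their own. These values cannot settle whether the numbers pair the samples, and the fit reported did not use a pairing. A replicate block gave 13 genes higher in V/SVZ and 7 in CP, and Lamc3 gained a call (adjusted p = 0.0463, limma). Signal over background limited 9 genes that could not be tested and 3 above background on no CP array.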
